A study of Rattus norvegicus with 7 samples.

Results

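The genes described here make up the glutathione, thioredoxin and peroxide defence of the rat colon crypt. They were chosen by symbol from the RNA table of the series, by a rule that uses no measured value: the soluble glutathione transferases (Gst classes), the microsomal glutathione transferases (Mgst), the glutathione peroxidases (Gpx), the peroxiredoxins (Prdx), the thioredoxins, thioredoxin reductases and Txnip, the superoxide dismutases (Sod), and 11 further genes of glutathione synthesis and of the NRF2 response, among them Cat and Selenbp1. The rule found 57 genes among the 16468 of the table. RNA came from crypts, the epithelial pits of the colon, of Sprague Dawley rats aged 14 weeks. One group was the proximal and the other the distal colon, and no treatment is named for either. The material of 7 rats was pooled for each region and sequenced as 1 RNA library, so there was no spread between replicates and no test of the regions could be made. Every difference below compares these 2 libraries.

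Glutathione is a small thiol that transferases join to reactive chemicals and that peroxidases spend to reduce peroxides. Thioredoxin is a small protein that reduces disulfides in other proteins, and it passes electrons to most peroxiredoxins, which also remove peroxides. Glutathione reductase and the thioredoxin reductases restore both systems with NADPH. NRF2, held in check by KEAP1, is the transcription factor that raises many of these genes under oxidative or electrophilic stress. The colon epithelium meets oxidants and reactive compounds from diet, bacteria and its own oxidases, and several of these enzymes are abundant in it.

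Expression is given as FPKM, which divides a gene's fragments by the length of its transcript and the size of the library, so that levels of different genes can be set side by side. A gene was called measured with at least 1 FPKM in 1 library, and 50 of the 57 genes were. Differences are log2((distal FPKM + 1)/(proximal FPKM + 1)), called the log2 ratio below, and a gene whose log2 ratio reached 1 or -1 was counted as at least 2-fold apart. Counts at 1.5-fold are on that scale too, while the fold given for a single gene or sum is the plain ratio of FPKM. Paired levels are given with the proximal one first. Where a log2 fold change carries a standard error (SE), both are from the authors' deposited table, the SE being the one that its test statistic implies. That SE comes from the authors' model and does not measure variation between rats.

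Of the 50 measured defence genes, 31 (62.0%) stood less than 1.5-fold apart between the regions, beside 82.7% of all measured genes, and 5 stood at least 2-fold apart. Txn1, thioredoxin itself, was higher in the distal library. Gsta5, an alpha class glutathione transferase, Prdx6, a peroxiredoxin, Mgst1, a microsomal glutathione transferase, and Selenbp1, a selenium-binding protein that oxidises methanethiol, were higher in the proximal library. The 1 gene on the distal side was 2.0% of the 50, beside 3.71% of the 9847 measured genes of the table, and the 4 on the proximal side were 8.0%, beside 3.91%. Either way the share was 10%, beside 7.62%. Among genes of at least 20 FPKM, 1 of 38 defence genes (2.63%) was 2-fold higher distally, against a background of 4.4%, and 4 of 38 (10.5%) proximally, against 2.31%. The authors' deposited table called Txn1 higher in the distal library and Gsta5, Prdx6 and Mgst1 higher in the proximal library, against 2.73% and 2.69% of tested genes, and did not call Selenbp1. With 1.5-fold as the threshold, 9 of 50 defence genes (18%) were higher distally, beside 9.19% of measured genes, and 10 of 50 (20%) proximally, beside 8.12%. None of these differences in share was tested.

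**Figure D1:**
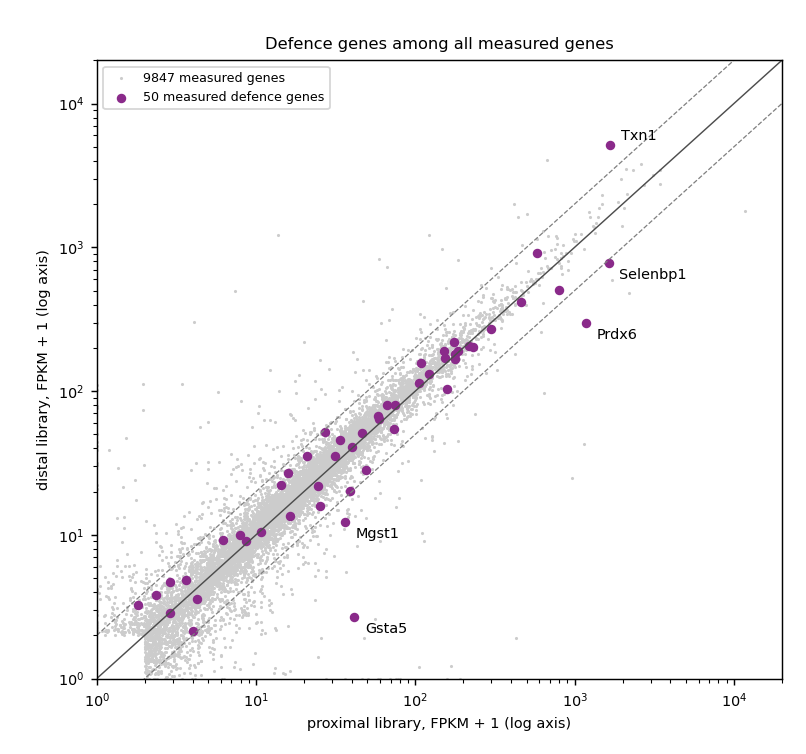
Each grey point is 1 of 9847 measured genes, with its proximal level on the x axis and its distal level on the y axis, both as FPKM + 1 on log axes, and purple points are the 50 measured defence genes. The solid line marks equal levels and the dashed lines a 2-fold difference on this scale; the 5 named genes lie outside the dashed lines, with Txn1 above and the other 4 below.

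The defence genes were abundant. Their median level was 46.5 FPKM proximally and 50.7 FPKM distally, where all measured genes had medians of 14.6 and 15.7 FPKM. Of the 50 genes, 38 (76.0%) reached 20 FPKM in 1 library, beside 44.8% of all measured genes. Summed over all 57 genes they took 2.27% of the table's FPKM proximally and 2.40% distally. Without Txn1 the order was the other way, with 7716 FPKM (1.87%) proximally and 6001 FPKM (1.30%) distally. The median log2 ratio of the 50 genes was 0.08, beside 0.09 over all measured genes. It was -0.012 after a rescaling that brought the median over all genes to 0, and -0.077 after one that equalised the upper quartiles. These multiplied the distal values by 0.932 and 0.888, which lowers the log2 ratio of an abundant gene by 0.10 and 0.17. Among genes of at least 20 FPKM, 23 of the 38 defence genes (60.5%) differed by less than 1.5-fold, beside 85.1% of all 4413 genes at that level.

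**Figure D2:**
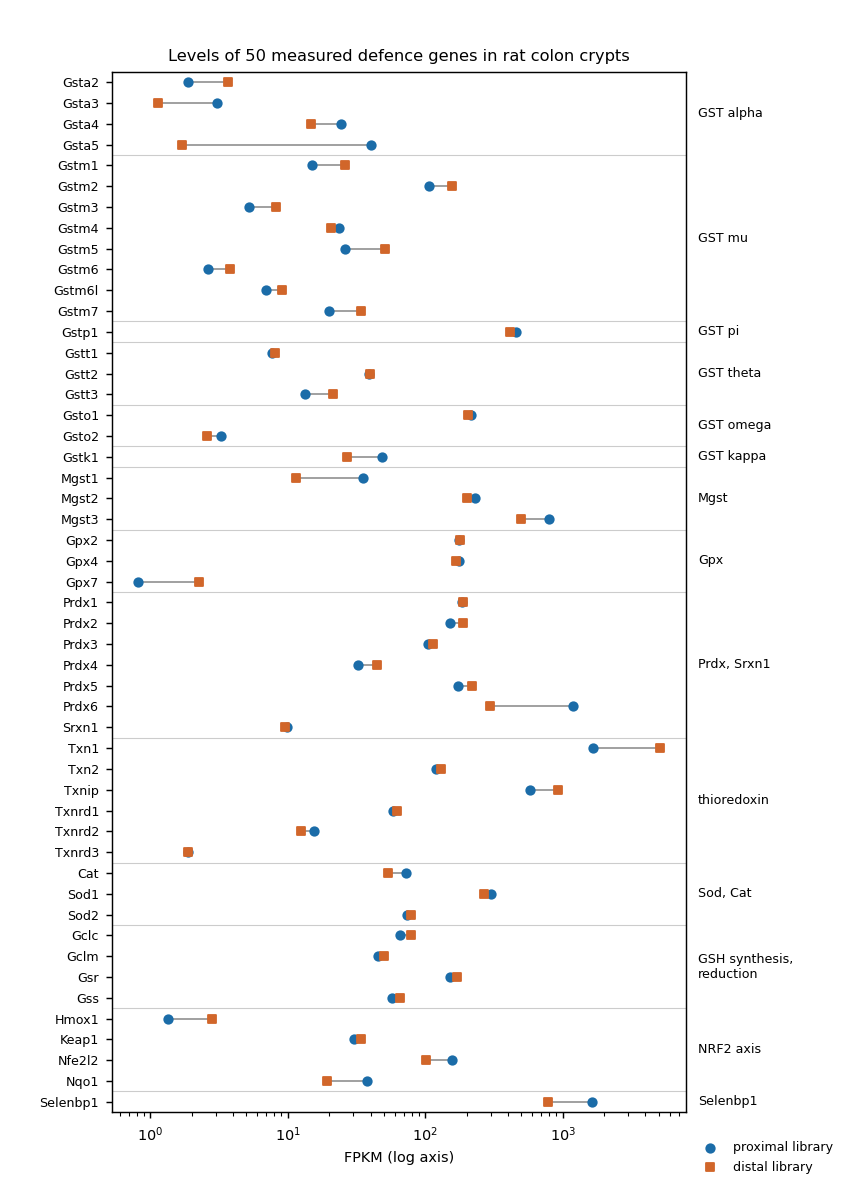
FPKM of each of the 50 measured defence genes on a log axis, by enzyme family, with the proximal library as blue circles and the distal library as orange squares. Most pairs lie close together, and the widest gaps belong to Gsta5, Prdx6, Txn1, Mgst1 and Gpx7, the last at under 3 FPKM in both libraries.

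Txn1 had the highest FPKM of all measured genes in the distal library. It stood at 1666 FPKM in the proximal library, rank 16 of the measured genes, and at 5132 FPKM in the distal library, rank 1. The distal level was 3.08-fold higher, with a log2 fold change of 1.62 (SE 0.35) and a q of 0.000245 in the authors' deposited table. Txn1 lies on chromosome 5 at 75921365 to 75933595 in the rn4 build. RefSeq lists 1 copy named after it, Txn1l1, and has such copies for 14 of the 57 defence genes. How reads were shared with them is unknown here.

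The other genes of the thioredoxin system stood closer together. Mitochondrial thioredoxin, Txn2, stood at 121 FPKM proximally and 131 FPKM distally. The cytosolic reductase Txnrd1, which recycles the product of Txn1, stood at 58.0 and 62.5 FPKM. The mitochondrial reductase Txnrd2 stood at 15.4 and 12.5 FPKM. Txnrd3, a reductase best known from the testis, stood at 1.89 and 1.86 FPKM. These 4 genes were each less than 1.25-fold apart, and Txnrd1 and Txnrd2 share their loci in the table with other genes, whose reads their values can hold. Txnip, which binds thioredoxin and inhibits it, stood at 581 and 918 FPKM, 1.58-fold higher distally, with a log2 fold change of 0.66 (SE 0.61) and a q of 0.925 in the authors' deposited table. The Txn1 transcript was thus 2.87 times the Txnip transcript proximally and 5.59 times distally, and 28.7 and 82.1 times the Txnrd1 transcript. Txn1 made up 68.2% of the summed FPKM of the 6 genes proximally and 82.0% distally.

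The start of Txn1 is shown because it is the defence gene with the highest level and the only one at least 2-fold higher distally. The window runs from 250 bases before to 50 after the gene's annotated start in RefSeq, on the minus strand of chr5:77519636-77519935 of the GRCr8 build. GRCr8 is a later build than that of the table, and its coordinates are not comparable with those in rn4. Capitals mark TATAAA, the letters of a TATA box, 112 bases before the annotated start. That start falls on an ATG, so for Txn1 it may not be where transcription begins. The annotated start falls on an ATG in 1 of 48 windows of the defence genes, with Gsta3 and Gsta5 left out. It does so in 9.0% of all 33469 RefSeq windows.
Txn1: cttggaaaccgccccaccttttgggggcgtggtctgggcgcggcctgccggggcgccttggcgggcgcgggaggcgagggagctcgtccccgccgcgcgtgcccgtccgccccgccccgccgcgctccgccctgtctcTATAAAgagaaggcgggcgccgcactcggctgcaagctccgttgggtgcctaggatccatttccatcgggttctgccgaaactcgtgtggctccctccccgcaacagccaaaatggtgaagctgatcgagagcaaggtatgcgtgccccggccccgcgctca
The window was 70.0% G and C. TATAAA was looked for on both strands after the sequences had been seen. It occurs in the windows of 15.3% of 27457 RefSeq genes and of 9 of 43 defence genes with a usable window.

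Prdx6 set the peroxiredoxin family apart between the libraries. Prdx6 is the peroxiredoxin with a single catalytic cysteine, which is reduced with glutathione rather than thioredoxin, and it also acts on phospholipids. It stood at 1183 FPKM in the proximal library, rank 28, and at 296 FPKM in the distal library, rank 215. The proximal level was 3.99-fold higher, with a log2 fold change of -2.00 (SE 0.37) and a q of 6.78e-06 in the authors' deposited table. The gene lies on chromosome 13 at 76824968 to 76835517 of rn4. RefSeq lists 3 pseudogenes named after it, and how reads were shared with such copies is unknown here.

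The 5 peroxiredoxins other than Prdx6 were close in both libraries, each less than 1.4-fold apart. Cytosolic Prdx1 stood at 185 and 188 FPKM. Prdx2, also cytosolic and abundant in red blood cells, stood at 151 and 189 FPKM. Mitochondrial Prdx3 stood at 104 and 114 FPKM. Prdx4, which works in the endoplasmic reticulum, stood at 32.5 and 44.6 FPKM. Prdx5, found in mitochondria, peroxisomes and cytosol, stood at 174 and 220 FPKM. All 5 were a little higher in the distal library as deposited, while Prdx6 went the other way. Prdx1 turned below 0 under both rescalings and Prdx3 under equal upper quartiles, where the family median turned from 0.13 to -0.05. Srxn1, sulfiredoxin, which repairs over-oxidised peroxiredoxins, stood at 9.79 and 9.54 FPKM. Prdx6 made up 64.3% of the family's summed FPKM proximally and 27.9% distally, and the sum itself was 1840 and 1061 FPKM. The ratio of Prdx6 to Prdx1 was 6.38 proximally and 1.57 distally. RefSeq lists 8 copies named after Prdx1, and how reads were shared with them is unknown here.

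**Figure D3:**
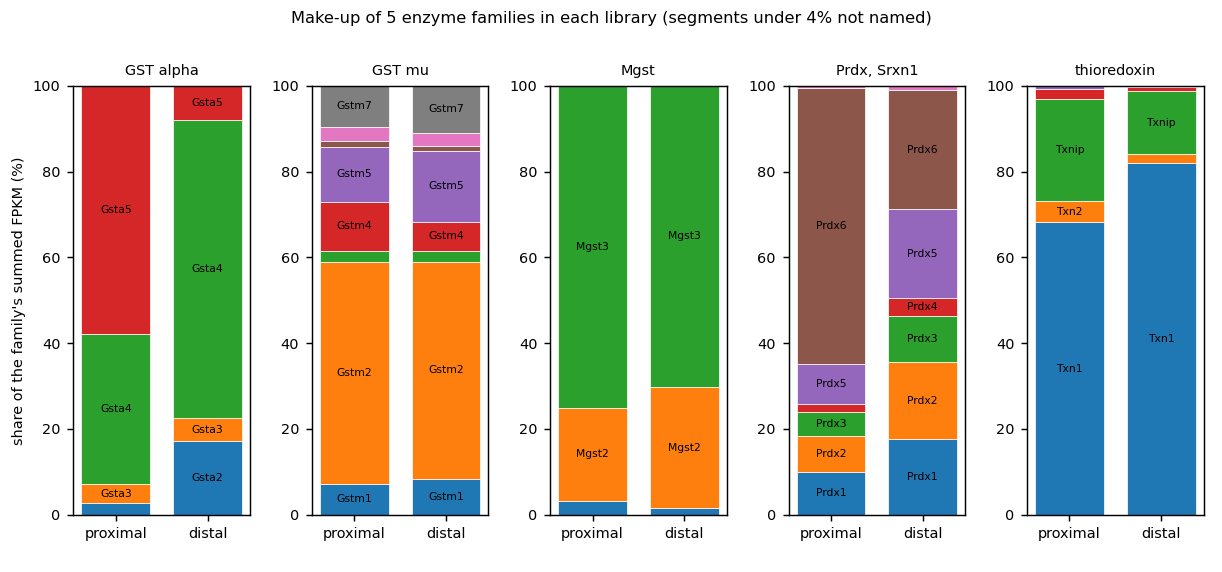
Stacked bars give each gene's share, in percent, of its family's summed FPKM in the proximal and the distal library, for 5 families. Gsta5 takes 57.9% of the proximal and 7.95% of the distal alpha class bar, and Prdx6 takes 64.3% and 27.9% of the peroxiredoxin bars, while the mu class and microsomal bars look much the same in both libraries.

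Selenbp1 was the second defence gene by level in the proximal library, after Txn1. It stood at 1634 FPKM there, rank 17, and at 776 FPKM in the distal library, rank 63. Selenbp1 is known from mature colonocytes, where it turns methanethiol from bacteria into hydrogen sulfide, hydrogen peroxide and formaldehyde. The proximal level was 2.11-fold higher, with a log2 fold change of -1.07 (SE 0.59) and a q of 0.493 in the authors' deposited table, which did not call it. Absorptive colonocyte markers summed to 18630 FPKM proximally and 8190 FPKM distally, and without Car1 to 6901 and 6409 FPKM. Of these 14 markers 7 were higher on each side, with a median log2 ratio of -0.09. Their part in the difference of Selenbp1 was not tested. The gene lies on chromosome 2 at 189840450 to 189847640 of rn4.

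The alpha class transferases, which conjugate electrophiles and reduce lipid peroxides, had the widest difference in summed level of the families with several genes, at 69.5 and 21.4 FPKM, or 3.25-fold. The row named Gsta5 stood at 40.2 FPKM proximally and 1.70 FPKM distally, 23.7-fold higher proximally. Its log2 fold change in the authors' deposited table was -4.57 (SE 0.59), with a q of 3.68e-12. Gsta4, which favours 4-hydroxynonenal, a product of lipid peroxidation, stood at 24.3 and 14.9 FPKM, with a log2 fold change of -0.71 (SE 0.46) and a q of 0.680 in the authors' deposited table. Gsta3 stood at 3.04 and 1.14 FPKM (log2 fold change -1.41, SE 0.73, q of 0.422 in that table) and Gsta2 at 1.88 and 3.66 FPKM (0.96, SE 0.73, q of 0.814 in that table). Gsta5 thus made up 57.9% of the class proximally and 7.95% distally, where Gsta4 made up 69.6%.

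Names in this class have moved since the table was made. In the table Gsta5 lies on chromosome 9 at 20005570 to 20032031 of rn4, between Tmem14a and Gsta3, whereas the gene now called Gsta5 in RefSeq (GRCr8) is on chromosome 8 and appears in the table as LOC494499, at 1.67 and 3.47 FPKM. On chromosome 9 RefSeq now has, next to Tmem14a, a gene called Gsta3 with the older symbols Gsta5 and Yc2. After it comes one called Gsta1, with Gsta3, Gsta5 and Yc1 among its older symbols. Their lengths of 25665 and 16720 bases are close to the 26462 and 16646 bases of the table's Gsta5 and Gsta3. The older symbol Gsta5 and the chromosome fit both genes. By neighbours and length the row read as Gsta5 is most like the gene of the Yc2 subunit. That subunit is a transferase known for detoxifying the epoxide of aflatoxin. No identifier in the table settles which gene the row holds. Whether reads were shared between these related genes is unknown here.

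All 4 rows of this stretch of chromosome 9 were lower in the distal library. Tmem14a, a membrane protein gene beside the cluster, stood at 9.89 and 2.97 FPKM, and LOC501110, which RefSeq now calls Gsta6, at 1.48 and 0.117 FPKM. LOC501110 was called in the authors' deposited table (q of 0.00776) and Tmem14a was not (q of 0.0913). On chromosome 8, Gsta4 was lower, and LOC494499 and Gsta2 were higher, in the distal library. These genes were picked as neighbours after the values were seen.

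**Figure D4:**
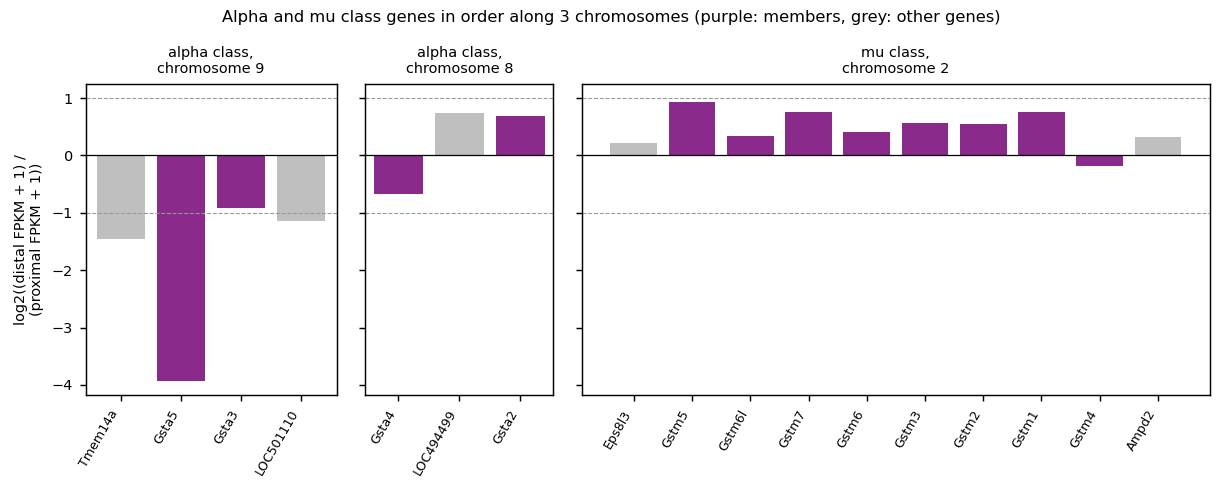
Bars give the log2 ratio of distal over proximal for genes in their order along chromosomes 9, 8 and 2 of the table, with defence genes in purple, other genes in grey and dashed lines at 1 and -1. All 4 bars on chromosome 9 point down, and 7 of the 8 mu class bars on chromosome 2 point up without reaching 1.

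The start of the RefSeq gene that carries the older symbols Gsta5 and Yc2 is shown because the row matched to it, by neighbours and length, differed most. It is the plus strand of chr9:31154739-31155038 of GRCr8, the first of 2 starts given for that gene. Capitals mark TGACNNNGC, the core of the antioxidant response element to which NRF2 binds, here 17 bases before the annotated start.
Gsta3 (older symbols Gsta5, Yc2): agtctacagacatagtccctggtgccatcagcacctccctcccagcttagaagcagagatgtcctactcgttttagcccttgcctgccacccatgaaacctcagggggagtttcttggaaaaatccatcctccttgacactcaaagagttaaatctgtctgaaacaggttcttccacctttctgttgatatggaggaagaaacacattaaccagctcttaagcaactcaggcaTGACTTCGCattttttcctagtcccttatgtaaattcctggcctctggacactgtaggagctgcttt
The window of the other start held no such match.

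The mu class, a cluster of 8 genes on chromosome 2, was mostly a little higher in the distal library. Its median log2 ratio was 0.56, and 0.40 with equal upper quartiles, and 7 of 8 genes were higher in the distal library, none of them 2-fold. Of all measured genes 61.4% were higher there, and of the 50 defence genes 58.0%. Gstm2 was the leading member, at 107 and 157 FPKM, with a log2 fold change of 0.55 (SE 0.30) and a q of 0.502 in the authors' deposited table. Gstm5 stood at 26.3 and 51.3 FPKM, 1.95-fold higher distally (log2 fold change 0.96, SE 0.42, q of 0.246 in that table). Gstm7 stood at 19.9 and 34.2 FPKM (0.78, SE 0.38, q of 0.349 in that table) and Gstm1 at 14.97 and 26.0 FPKM (0.80, SE 0.44, q of 0.503 in that table). Gstm3, Gstm6l and Gstm6 lay between 2.63 and 9.005 FPKM. Gstm4, at 23.7 and 20.8 FPKM, was the exception. None was called. The summed level of the class was 207 FPKM proximally and 310 FPKM distally. The genes are related copies that lie side by side, and whether reads were shared between them is unknown here.

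None of the remaining soluble transferases was 2-fold apart. Gstp1, the pi class enzyme and the most abundant soluble transferase, stood at 459 FPKM proximally and 414 FPKM distally, with a log2 fold change of -0.15 (SE 0.31) and a q of 0.9996 in the authors' deposited table. Gsto1, an omega class enzyme that reduces dehydroascorbate, stood at 216 and 205 FPKM (-0.07, SE 0.30 in that table), and Gsto2 at 3.28 and 2.60 FPKM. Of the theta class, Gstt2 stood at 38.8 and 40.0 FPKM (0.04, SE 0.33 in that table), Gstt3 at 13.4 and 21.4 FPKM and Gstt1 at 7.65 and 8.02 FPKM, while Gstt4 was listed at 0 in both libraries. The theta class median of 0.06 turned to -0.03 and -0.09 under the rescalings. Gstk1, the kappa class enzyme of mitochondria and peroxisomes, was 1.77-fold higher proximally, at 48.1 against 27.1 FPKM, with a log2 fold change of -0.83 (SE 0.39) and a q of 0.320 in the authors' deposited table.

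The 3 microsomal transferases, membrane proteins that also reduce lipid peroxides, were all higher in the proximal library. Mgst1 stood at 35.004 and 11.4 FPKM, 3.07-fold apart, with a log2 fold change of -1.62 (SE 0.49) and a q of 0.0199 in the authors' deposited table. It lies on chromosome 4 at 175248654 to 175263881 of rn4. Mgst3, by far the most abundant of the 3, stood at 796 and 501 FPKM (-0.67, SE 0.31, q of 0.303 in that table). Mgst2, which can also make leukotriene C, stood at 228 and 201 FPKM. The family had a median log2 ratio of -0.67, or -0.84 with equal upper quartiles. Its summed level was 1059 FPKM proximally and 713 FPKM distally, 1.48-fold apart. Mgst1 itself was at most 3.30% of that sum.

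The start of Mgst1 is shown as the second gene of the called set with a usable window, on the plus strand of chr4:172760680-172760979 of GRCr8. It holds neither the element core nor TATAAA.
Mgst1: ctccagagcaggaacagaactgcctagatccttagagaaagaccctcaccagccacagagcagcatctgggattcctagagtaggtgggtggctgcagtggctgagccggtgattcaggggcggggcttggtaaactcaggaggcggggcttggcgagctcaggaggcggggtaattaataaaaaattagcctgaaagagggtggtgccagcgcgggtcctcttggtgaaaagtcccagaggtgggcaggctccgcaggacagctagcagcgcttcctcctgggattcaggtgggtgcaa

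Glutathione peroxidases were balanced between the libraries. Gpx2, the peroxidase of the gut epithelium, stood at 175 FPKM proximally and 181 FPKM distally (log2 fold change 0.04, SE 0.29, in the authors' deposited table). Gpx4, which reduces lipid hydroperoxides within membranes, stood at 176 and 167 FPKM. Both were thus near equal to each other as well, each taking between 47.8% and 51.5% of the family's sum. Gpx7, a peroxidase of the endoplasmic reticulum, was low, at 0.809 and 2.24 FPKM (1.47, SE 0.80, q of 0.484 in that table). The family median of 0.04 turned to -0.06 and -0.13 under the rescalings. Gpx3, the plasma form, stood at 0.377 and 0.214 FPKM, under the minimum, and Gpx5, Gpx6 and Gpx8 were listed at 0 in both libraries.

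Gpx1, the most widespread cytosolic glutathione peroxidase, was also listed at 0 in both libraries, and this value cannot be read as absence. The table places Gpx1 on an unplaced piece of chromosome 16 (16_random) at 1045476 to 1046574 of rn4, while RefSeq has it on chromosome 8. No level of Gpx1 can be given. The family totals above therefore lack it.

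Superoxide dismutases, which turn superoxide into hydrogen peroxide, and catalase, which breaks the peroxide down, were all less than 1.4-fold apart where measured. Cytosolic Sod1 stood at 300 FPKM proximally and 269 FPKM distally (log2 fold change -0.15, SE 0.29, in the authors' deposited table). Mitochondrial Sod2 stood at 73.1 and 78.9 FPKM, and Cat at 73.0 and 53.6 FPKM. Extracellular Sod3 stood at 0.109 and 0.746 FPKM, under the minimum in both libraries.

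Glutathione synthesis and recycling differed little between the libraries. Gclc and Gclm, the catalytic and modifier subunits of the rate-limiting ligase, stood at 65.2 and 79.3 FPKM and at 45.0 and 50.1 FPKM. Gss, which completes glutathione, stood at 57.0 and 65.9 FPKM. Gsr, glutathione reductase, was the highest of the 4, at 152 and 169 FPKM (log2 fold change 0.15, SE 0.32, in the authors' deposited table). All 4 were slightly higher in the distal library, by less than 1.25-fold, and the median of 0.18 was 0.01 with equal upper quartiles, where Gsr turned to -0.02 and Gclm also fell just below 0.

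The transcripts of Nfe2l2 and of the NRF2 target Nqo1 stood higher in the proximal library, and neither was 2-fold apart or called. Nfe2l2, the gene of NRF2, stood at 157 FPKM proximally and 102 FPKM distally (log2 fold change -0.62, SE 0.33, q of 0.433 in the authors' deposited table). Keap1 stood at 30.3 and 34.2 FPKM. Nqo1, a quinone reductase and a standard readout of NRF2, stood at 38.0 and 19.1 FPKM, 1.98-fold higher proximally (-0.99, SE 0.35, q of 0.0780 in that table). Its log2 ratio of -0.95 became -1.05 and -1.11 under the rescalings, past the 2-fold line. Hmox1, heme oxygenase, another NRF2 target, went the other way at a low level, with 1.34 and 2.80 FPKM (1.06, SE 0.70, q of 0.688 in that table). The transcript of Nfe2l2 was 5.17 times that of Keap1 proximally and 2.97 times distally. The log2 ratios of Gclc, Gclm, Gsr, Txnrd1, Prdx1 and Srxn1, described above, were 0.28, 0.15, 0.15, 0.11, 0.02 and -0.03. Of 32 further measured NRF2 partners and targets, 15 were higher distally and 17 proximally. The activity of NRF2 was not measured.

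The start of Nqo1 is shown as that of the usual NRF2 reporter gene, on the minus strand of chr19:52220218-52220517 of GRCr8, with capitals for TATAAA, 59 bases before the annotated start.
Nqo1: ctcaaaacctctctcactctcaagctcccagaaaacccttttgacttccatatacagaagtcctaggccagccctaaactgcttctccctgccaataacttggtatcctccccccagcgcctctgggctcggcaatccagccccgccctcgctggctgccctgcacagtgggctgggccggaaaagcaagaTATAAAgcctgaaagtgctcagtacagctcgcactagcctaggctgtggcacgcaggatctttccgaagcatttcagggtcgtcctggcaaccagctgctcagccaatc
It holds no match to the element core, which says only that these letters are not in this window.

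**Figure D5:**
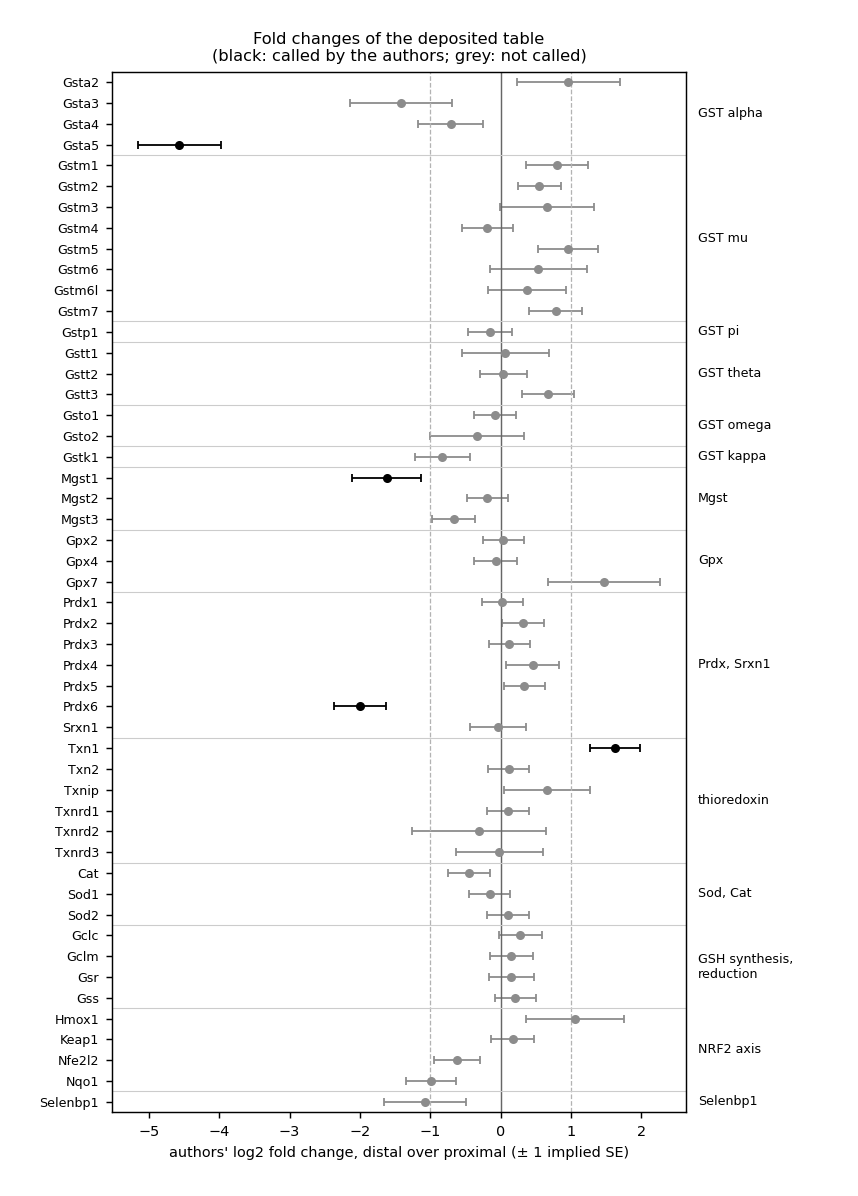
Points give the log2 fold change of the authors' deposited table, distal over proximal, with bars of 1 implied SE to each side, for the 50 measured defence genes by family. The 4 genes called by the authors are black, namely Gsta5, Mgst1, Prdx6 and Txn1, and dashed lines mark 2-fold; these bars come from the model behind the table and not from replicate libraries.

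The element core TGACNNNGC was looked for on both strands in the windows of the defence genes. By symbol, 55 of the 57 genes are on the chromosome RefSeq gives, all but Gpx1 and Gsta5. A usable window was at hand for 43 genes, with Gpx1 left out for its chromosome and Gsta5 and Gsta3 because their names have moved. A match was found in 12 of the 43 genes (27.9%), beside 13.1% of 27457 RefSeq genes, with no test of this difference. The matches are shown with up to 8 bases to each side, 5' to 3' on the gene's strand, since they name the genes whose starts carry the letters. Capitals mark the match, which reads as the reverse complement of the core where it begins with GC.
Gclm: cggtttctGCTTAGTCAttgtcttc
Gpx2: ctggtttcGCTAAGTCAttctggga
Gsta2: cgactctcGCTAGGTCAgtact
Gstm5: aggccaagTGACCACGCggagggcg
Gstm5: agtcgcgtTGACCCCGCccacagcg
Gstm7: ggctagatTGACACAGCctgtccgt
Gstp1: cactgtgtTGACTCAGCatccgggg
Nfe2l2: ctagccatTGACGCCGCctc
Prdx1: gggaaagcGCTGAGTCAtaccccgc
Prdx4: tcgtgctcGCTTGGTCAtggaaacg
Prdx5: tcctgtggGCAGAGTCAtctgcggg
Sod2: cgctgccgGCAGGGTCAgcgcctag
Txnrd1: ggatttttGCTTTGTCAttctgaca
Of the 5 genes at least 2-fold apart, Txn1 and Mgst1 were among the 43 and had no match. The other 3 were outside the 43: Prdx6 and Selenbp1 had no window, and Gsta5 was left out for its name, though the window of the gene it most resembles holds a match. None of the 12 genes with a match was at least 2-fold apart, which therefore says nothing of those 3. Their log2 ratios ran from -0.62 (Nfe2l2) to 0.94 (Gstm5), with a median of 0.13. The 31 genes without a match, of which 27 were measured, had a median of -0.01. A match is not evidence of binding, and elements farther from the start were not searched.

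Other genes of the same pathways were followed through lists of related genes. For comparison with the counts below, 3.71% of all measured genes were at least 2-fold higher distally and 3.91% proximally. NADPH supply was similar: of 8 measured genes 1 was at least 2-fold higher distally and none proximally, with a median log2 ratio of 0.07. That gene was Nnt, the mitochondrial transhydrogenase, at 16.1 and 39.4 FPKM, called in the authors' deposited table (q of 0.000766). Idh1, at 155 and 157 FPKM, was the most abundant. Of 21 measured genes of glutathione turnover and precursor transport, 1 was at least 2-fold higher distally and 1 proximally, with a median of 0.06. Cth, which makes cysteine from cystathionine, was the proximal one, at 113 and 46.5 FPKM (2.44-fold, log2 fold change -1.28, SE 0.30, q of 0.000798 in the authors' deposited table). Anpep, a peptidase, was the distal one, at 0.628 and 2.52 FPKM, and was called in that table (q of 0.0376). Slc1a5, less than 2-fold apart at 23.7 and 45.4 FPKM, was also called there as higher distally (q of 0.0403). Ahcy, which releases homocysteine, was the most abundant, at 138 and 103 FPKM.

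The 18 measured glutaredoxins and thioredoxin-fold proteins held no gene 2-fold apart, with a median of 0.29. Clic1 was the most abundant of them, at 203 and 296 FPKM (log2 fold change 0.54, SE 1.41, in the authors' deposited table). Clic1 shares its locus in the table with other genes, whose reads its values can hold. None of the 7 genes of methionine sulfoxide repair and aldehyde removal was 2-fold apart either, and Adh5, which clears formaldehyde bound to glutathione, was the most abundant, at 239 and 195 FPKM. Of 15 measured genes of selenium handling, the deiodinase Dio1 was at least 2-fold apart, at 3.61 and 15.6 FPKM, and called in the authors' deposited table (q of 0.00149). Selm was the most abundant of them, at 349 and 379 FPKM.

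Among 32 further NRF2 partners and targets, 1 measured gene was at least 2-fold higher distally and 3 proximally, with a median of -0.06. Ptgr1, which reduces reactive alkenals, stood at 127 and 46.9 FPKM (2.71-fold higher proximally), and Akr1b8, an aldo-keto reductase, at 82.6 and 40.7 FPKM. Both were called in the authors' deposited table, with q of 0.000217 and 0.0319. Blvra, biliverdin reductase, stood at 14.1 and 5.98 FPKM and was not called. Ugt1a6, a glucuronosyltransferase, went the other way at 46.2 and 139 FPKM and was not called (SE 0.93). Ugt1a6 shares its locus in the table with other genes, whose reads its values can hold. Fth1, the ferritin heavy chain, was the most abundant of the list, at 3426 and 2754 FPKM.

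Oxidant sources went both ways, with a median log2 ratio of -0.24. Of 20 measured genes 8 were higher distally and 12 proximally, and 4 were at least 2-fold higher distally. They were Lpo, lactoperoxidase, which uses hydrogen peroxide, at 67.6 and 309 FPKM, Duox2, the epithelial oxidase that makes it, at 9.61 and 33.2 FPKM, its maturation factor Duoxa2 at 5.64 and 14.3 FPKM, and the oxidase subunit Cyba at 135 and 310 FPKM. Cybb and Ncf1, parts of the phagocyte oxidase, were at least 2-fold higher proximally, at 1.82 and 0.269 FPKM and at 7.12 and 2.02 FPKM. Except Duoxa2, these 6 genes were called in the authors' deposited table. Of 7 measured genes of metal binding and iron storage, 3 were at least 2-fold higher distally and none proximally: Mt1a at 81.8 and 172 FPKM, Mt2A at 18.2 and 42.0 FPKM, and the iron exporter Slc40a1 at 18.8 and 52.9 FPKM. Slc40a1 alone of these 3 was called in the authors' deposited table.

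Markers of the cells in the preparations were set beside these values. Epithelial markers were high in both libraries, with a summed 10580 FPKM proximally and 13691 FPKM distally, and none of 10 measured genes was 2-fold apart. Cldn3 was listed at 0 in both. Goblet cell markers summed to 3936 and 9026 FPKM, with 5 of 13 genes at least 2-fold higher distally and 1 proximally. Absorptive cell markers summed to 18630 and 8190 FPKM, of which Car1, a carbonic anhydrase, gave 11730 and 1781 FPKM, with 2 of 14 genes at least 2-fold higher on each side. Lymphocyte markers summed to 82.7 and 22.9 FPKM, with 6 of 11 measured genes at least 2-fold higher proximally and none distally. Macrophage and granulocyte markers summed to 155 and 151 FPKM, of which Cd14 alone gave 101 and 116 FPKM. Of 12 measured genes in that list, 8 were higher proximally and 4 distally, with 3 and 1 of them at least 2-fold apart. Cd163, Emr1 and Mpo were listed at 0 in both. Stromal and muscle markers summed to 25.7 and 19.6 FPKM, with 1 of 7 measured genes 2-fold higher on each side and Dcn and Lum listed at 0 in both. Red blood cell markers summed to 100 and 170 FPKM, with Hba-a2, a hemoglobin chain, at 56.3 and 101 FPKM, while Prdx2 stood at 151 and 189 FPKM. Early response and stress genes summed to 980 and 1730 FPKM, with 4 of 16 measured genes at least 2-fold higher distally. The part of cell makeup or handling in the differences of the defence genes was not tested, and in pooled tissue fewer cells of a type and less RNA per cell cannot be told apart.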

How the data were processed

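Crypt RNA of 7 pooled rats was sequenced as 1 library for the proximal and 1 for the distal colon, per the labels. The other 5 libraries of the series, of chromatin, were left out because the genes are compared by RNA. The submitters' processing notes name CASAVA, TopHat2 and rn4 for both RNA libraries and no version. Which software wrote the expression table is unknown here.

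Levels in it were read as FPKM computed by the authors, since they are not whole and their sums differ (413026 and 463561). The log2 fold change, the p-value and q-value and the test score are those of the authors' deposited table. Its p-value equals the two-sided normal tail of the test statistic with a gap of at most 2.76e-06, and the size of the fold change divided by the statistic was therefore taken as the implied SE. Of 16492 rows, 23 marked as too low or failed and 1 repeated row were left out. Loci were shifted by 1 at their start.

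No source used here gives the number of reads. For olfactory receptor genes, 3 reads were worth about 0.425 FPKM proximally and 0.339 FPKM distally, judged from the commonest p-value of rows at 0 in the other library, so no fold is given below 0.43 FPKM. The implied SE had a median of 0.36 over the measured genes described and 0.31 from 20 FPKM.

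Groups follow the sample titles. With 1 library per group no test was run. The genes and lists were chosen with earlier results of these data known. Named in full were genes at least 2-fold apart, the 10 next furthest apart, the highest of each family and those called by the authors. All 57 symbols were current in RefSeq (GRCr8), 55 on the same chromosome. This match is by symbol and does not settle which gene a row holds where alpha class names have moved, as for Gsta3. Alternatives were other pseudocounts, minimums, thresholds and scalings. The fold calculation was tested on simulated data. Python 3.11.15, pandas 2.3.3, numpy 2.4.6, scipy 1.17.1 and matplotlib 3.10.9 were used.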

Additional observations from a re-analysis of the deposited data

How the results depend on the processing

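Txn1 stayed at least 2-fold higher distally, and Gsta5 and Prdx6 proximally, under each alternative run that kept them; the one without the alpha and mu classes leaves out Gsta5. The count on the distal side was 1, and it was 3 with a pseudocount of 0.1 FPKM, which adds Gpx7 and Hmox1, and 9 at 1.5-fold. The count on the proximal side was 4, and it was 10 at 1.5-fold and 2 at 3-fold, where Mgst1 and Selenbp1 drop out. It was 5 with a pseudocount of 0.1 FPKM (adding Gsta3), 5 and 6 under the rescalings (adding Nqo1, then Gsta3) and 3 by the authors' call, which leaves out Selenbp1. The median log2 ratio of 0.08 turned to -0.012 with the distal library rescaled to a median of 0 and to -0.077 with equal upper quartiles, because those alternatives lower every distal value; no direction is read from it. The family medians of the glutathione peroxidases and theta class also changed sign under both rescalings, and those of the peroxiredoxins and the thioredoxin system under equal upper quartiles. The glutathione peroxidase median was also -0.01 with a minimum of 5 FPKM. The log2 ratio of Gsta5 was -2.76 with a pseudocount of 5 FPKM. With a minimum of 5 FPKM, which leaves fewer genes, the alpha class median was -2.30 and that of Nfe2l2, Keap1 and Nqo1 -0.62. Leaving out the alpha and mu classes, an alternative chosen after seeing the data, left 1 and 3 genes. No paired analysis was possible because each region has 1 library. With no replicate libraries and unknown read totals, differences of genes near 1 FPKM, such as Gpx7, Hmox1 and Txnrd3, are the least certain.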
